A study of Rattus norvegicus with 19 samples.

Results

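The axon guidance genes examined here are the ligands and receptors of the semaphorin, ephrin, Slit and netrin systems, taken by gene symbol from a rat expression array. The array annotation carried 58 probes for 57 such genes, and 43 genes had a probe detected on at least 3 of the 19 arrays (detection p-value under 0.05). These 43 were followed through untreated trigeminal nerve, a microtumour and malignant peripheral nerve sheath tumours (MPNST), out of 13116 probes tested in all. Of the 43 members, 14 were detected on all 19 arrays.

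Axon guidance ligands steer growing nerve fibres and migrating cells by attraction or repulsion. Class 3 semaphorins are secreted and mostly act through neuropilins paired with plexins, whereas semaphorins of classes 4 to 7 are held at the membrane and largely bind plexins directly. Ephrins signal between touching cells through Eph receptor tyrosine kinases, Slits repel through Robo receptors, and netrins act through Dcc and the Unc5 receptors. In peripheral nerve these systems are known for guiding axons, for sorting Schwann cells after injury and for patterning vessels.

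The 12 MPNST were single tumours of the trigeminal nerve in adult rats that had received the alkylating agent N-ethyl-N-nitrosourea (ENU) on postnatal day 1 (80 µg/g body weight). The F1-hybrid of BDIV and BDIX contributed 7 tumours, the BDIX and BDIV strains 2 each, and the congenic BDIX.BDIV-Mss4a 1, and 6 hosts were female and 6 male. The single microtumour came from an ENU-treated male of the congenic strain. The 6 nerve samples were pools of nerves from rats 85 days old, tagged as untreated, and the congenic strain (nerve 1 and 2), BDIX (nerve 3 and 4) and BDIV (nerve 5 and 6) each gave a male and a female pool. The protocol text of the nerve samples repeats the ENU injection, and they were taken as untreated from their own tag. F1 hybrids had no nerve pool, tumours were compared with pools, the tumour rats' age is given only as adult, and the labels do not say how many animals each pool held.

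Levels are normalized intensities on the log2 scale and can be compared between arrays for 1 gene but not between genes. The main normalization drew dim values together, so that its lowest values lay near 7.2 and the differences of dim genes came out small. In the files, the background spread that limma inferred from the detection p-values was 104 to 306 intensity units per array, against 7.68 to 22.8 units from the middle of the negative-bead range. Where the tested difference of a gene that passed moved by more than 1.5 times, its size with this second, robust estimate is therefore also given. The robust estimate was chosen after seeing the data. Between 44.1% and 54.1% of probes were detected per array. Raw background fell into a higher range on 11 arrays (2 nerve pools and 9 MPNST) and a lower range on the other 8 (4 nerve pools, 3 MPNST and the microtumour), and 4 of 43 members differed between the ranges with the groups held fixed, where 25.2% of all probes did. Nerve 5 and nerve 6 were the most alike of all pools, with a median absolute log2 difference of 0.0619 and the next closest pair at 0.106, and their columns were exchanged between the deposited tables.

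Compared with nerve, 26 of 43 members passed limma's moderated test in MPNST (Benjamini-Hochberg adjusted p under 0.05 over all 13116 probes). Of these, 10 were higher, where 22.5% of all probes were higher, and 16 were lower, where 20.1% of all probes were lower. Semaphorins of classes 4 to 7 and Slits moved in 1 direction, with 5 of 9 and 3 of 3 lower and none higher. Ephrins (3 of 5 higher, 1 lower), Eph receptors (2 of 7 higher, 3 lower) and plexins (1 of 4 higher, 2 lower) were split within the family. The median difference over the 43 members was -0.00147 on the log2 scale and over all probes 0.0152. With the robust background 11 members were higher (24.9% of all probes) and 16 lower (21.1% of all probes), with medians of -0.112 and 0.0909, and all 26 calls were among them. The added call was Sema3d, a secreted semaphorin, at least 1.34-fold higher (adjusted p = 0.047), since it was detected in 0 of 6 nerve pools. Sema3d was detected in 4 of 12 MPNST and was highest in MPNST 11 and MPNST 1. It met the detection filter through the tumours alone, so its call is not independent of that filter. Of the 43 members, 6 met the detection filter with fewer than 3 MPNST detected and 7 with fewer than 3 nerve pools detected. Such a member enters through the group where it is high, so the 7 calls among them on the main values (Epha5, Plxna2, Sema6b and Slit1 lower, Ephb3, Efna4 and Sema3e higher) are not independent of the filter.

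A change of at least 1 on the log2 scale was reached by 3 members upwards, Plxnb2, Nrp1 and Ntng1, where 5.09% of all probes were called higher by that much. It was reached by 7 members downwards, Sema3b, Sema4g, Ephb6, Sema4f, Slit1, Sema5a and Plxnd1, where 5.94% of all probes were called lower by that much. On the robust background these counts were 7 (9.71% of all probes), adding Ephb2, Sema3e, Unc5b and Efna5, and 12 (11.6% of all probes), adding Sema6c, Epha5, Ephb1, Efnb3 and Slit2. Every MPNST lay above every nerve pool for 4 members (Ephb2, Plxnb2, Sema3e and Unc5b; 7.62% of all probes). Every MPNST lay below every nerve pool for 8 members (Epha5, Ephb6, Sema3b, Sema4g, Sema5a, Sema6c, Slit1 and Slit2; 7.96% of all probes). Sema3e, Epha5 and Slit1 met the detection filter with fewer than 3 arrays detected in the group where they were low. Their separation is therefore not independent of that filter. By role, 4 of 24 ligands were higher and 10 lower, and 5 of 16 receptors were higher and 6 lower, beside 22.5% of all probes higher and 20.1% lower.

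**Figure D1:**
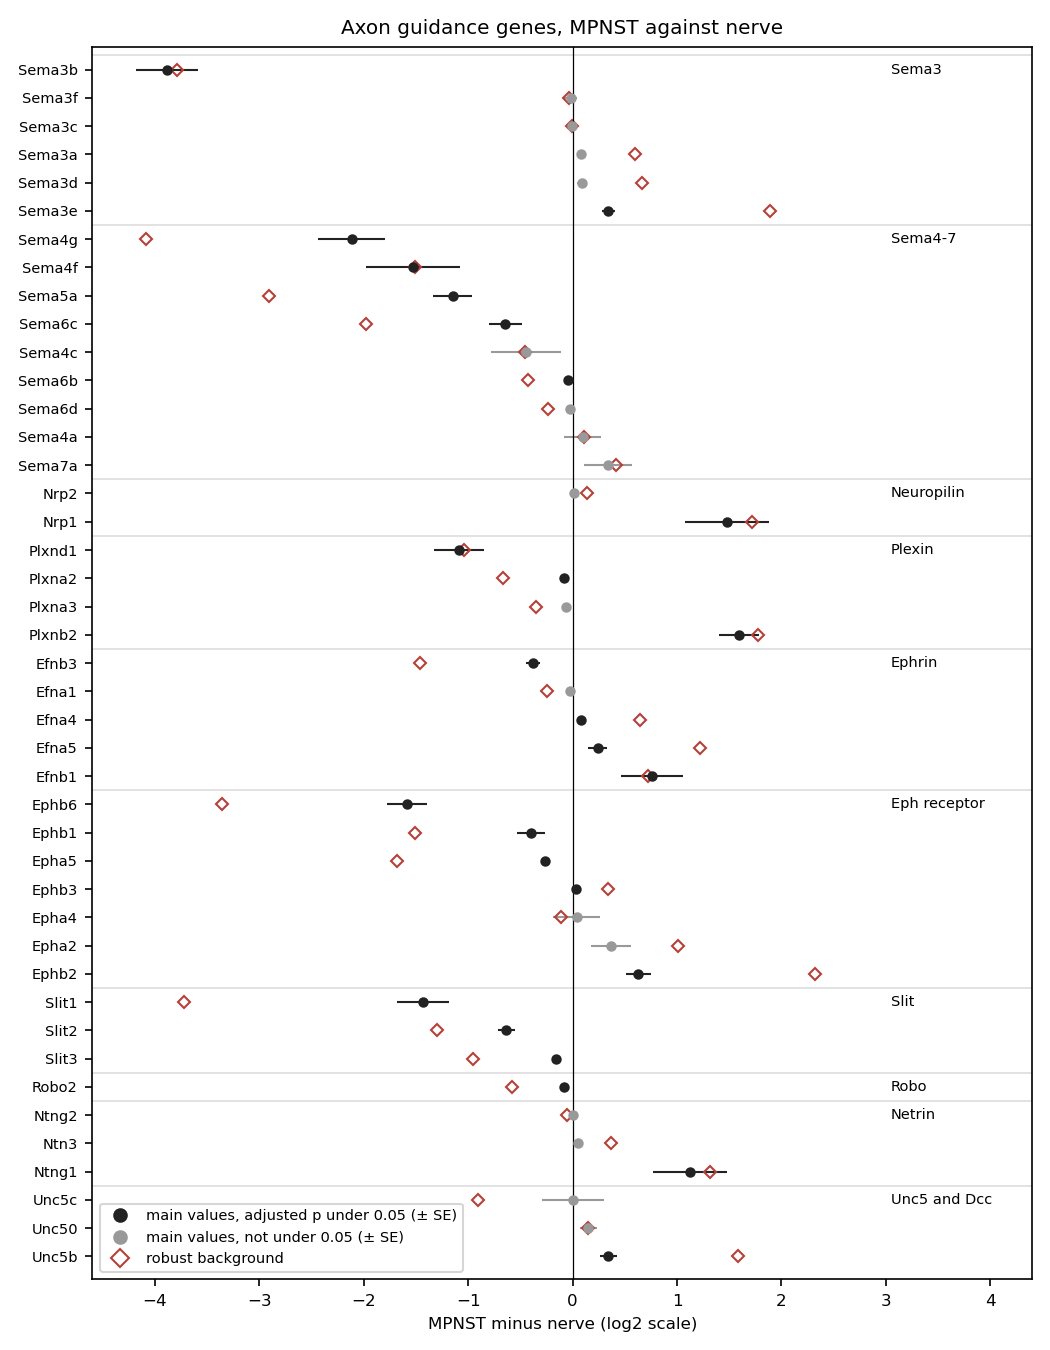
Difference between MPNST and nerve for the 43 genes by family on the log2 scale, as estimate ± SE from the 3-group fit (filled points, 12 MPNST and 6 nerve pools) and with the robust background (open diamonds). Sema3b lay farthest to the left at -3.88 on the main values, and Sema4g moved from -2.12 to -4.09 with the robust background.

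The 300 bases around the start of 4 genes are shown because Plxnb2 and Nrp1 had the largest rises, and Ephb6 and Sema4f the largest falls, among called members with an entry in the RefSeq promoter table (assembly GRCr8, 250 bases before to 50 after the start; 33 of 43 members had an entry). Sequences read 5′ to 3′ on the gene's strand, and capitals mark matches on either strand to the GC box GGGCGG, the CCAAT box, the AP-1 site TGANTCA, the Sox site AACAAT or the TEAD site GGAATG.
Plxnb2 (chr7:122137899-122138198, minus strand): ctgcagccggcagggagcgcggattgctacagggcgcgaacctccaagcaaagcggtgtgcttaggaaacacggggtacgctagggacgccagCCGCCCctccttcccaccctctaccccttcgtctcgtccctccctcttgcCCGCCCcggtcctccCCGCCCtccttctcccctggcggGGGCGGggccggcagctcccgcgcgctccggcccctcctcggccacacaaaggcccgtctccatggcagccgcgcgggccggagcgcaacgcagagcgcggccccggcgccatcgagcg
Nrp1 (chr19:73256307-73256606, plus strand): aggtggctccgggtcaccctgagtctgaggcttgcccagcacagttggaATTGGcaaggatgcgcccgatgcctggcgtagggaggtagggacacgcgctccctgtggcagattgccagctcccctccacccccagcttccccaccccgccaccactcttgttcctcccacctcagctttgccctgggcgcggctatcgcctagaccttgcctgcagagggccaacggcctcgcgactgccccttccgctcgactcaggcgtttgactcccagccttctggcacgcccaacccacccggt
Ephb6 (chr4:71458382-71458681, plus strand): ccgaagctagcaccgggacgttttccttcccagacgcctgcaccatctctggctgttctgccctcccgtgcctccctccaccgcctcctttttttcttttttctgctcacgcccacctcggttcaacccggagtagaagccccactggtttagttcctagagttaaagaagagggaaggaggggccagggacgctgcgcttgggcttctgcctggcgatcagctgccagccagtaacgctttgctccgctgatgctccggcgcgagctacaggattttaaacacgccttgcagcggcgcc
Sema4f (chr4:116995393-116995692, minus strand): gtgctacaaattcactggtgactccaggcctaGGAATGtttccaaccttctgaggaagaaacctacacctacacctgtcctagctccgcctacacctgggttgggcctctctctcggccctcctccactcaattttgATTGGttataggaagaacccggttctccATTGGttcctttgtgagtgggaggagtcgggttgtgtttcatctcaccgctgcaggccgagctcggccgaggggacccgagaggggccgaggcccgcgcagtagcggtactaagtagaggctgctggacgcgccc
Plxnb2 had 4 GC box matches, Nrp1 had 1 CCAAT box match, Sema4f had 2 CCAAT box matches and 1 TEAD site match, and none of the motifs matched in the Ephb6 window. Over all 33469 promoters the GC box was found in 33.1%, CCAAT in 37.5%, the AP-1 site in 7.33%, the Sox site in 11.7% and the TEAD site in 14.2%. Among the 33 members the shares were 48.5%, 36.4%, 0%, 6.06% and 9.09% in the same order. These matches describe the letters of these windows only.

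Sema3b (chromosome 8), a secreted semaphorin that binds neuropilins, had the largest fall on the main values, although Sema4g fell further with the robust background (-4.09 against -3.79), and Sema4g, Slit1 and Ephb6 did on the authors' values (-4.96, -4.70 and -4.0 against -3.84). Its levels in the 6 nerve pools were 14.11, 14.14, 13.57, 14.39, 12.59 and 12.98 for nerve 1 to 6, and in the 12 MPNST they ranged from 8.72 over a median of 9.68 to 10.69. Every MPNST lay far below the lowest pool, and the microtumour, at 11.86, lay between the groups. Sema3b was 14.8-fold lower in MPNST (difference -3.88 ± 0.30 SE, n = 12 and 6, limma adjusted p = 2.27e-08).

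Sema3e (chromosome 4), a secreted semaphorin that binds plexin D1 without a neuropilin, went the other way. Its nerve pools lay between 7.24 and 7.28 with a median of 7.25, and the MPNST between 7.42 and 7.80 with a median of 7.63. It was detected in 1 of 6 nerve pools and in 12 of 12 MPNST. The difference was 0.34 ± 0.06 SE (limma adjusted p = 0.00021) and 3.70-fold with the robust background, a size that rests on pools mostly not above background. The other 4 detected class 3 semaphorins, Sema3a, Sema3c, Sema3d and Sema3f, did not pass the test, with differences from -0.02 to 0.09.

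Sema4g (chromosome 1), a membrane semaphorin, had the largest difference of classes 4 to 7. Nerve pools 1 to 6 stood at 9.28, 9.47, 10.36, 11.14, 8.07 and 8.27, and the MPNST at 7.27 to 7.43 with a median of 7.29. The pools spread widely (SD 1.18) and the MPNST little (SD 0.05, or 0.37 with the robust background), and 6 of 12 MPNST had a detected signal. Sema4g was lower in MPNST by 4.34-fold (-2.12 ± 0.32 SE, limma adjusted p = 5.22e-05), or by 17.0-fold with the robust background.

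Sema4f (chromosome 4), a membrane semaphorin of neurons and glia, fell in MPNST and varied widely between tumours. Its nerve pools ranged from 10.19 over 11.23 to 11.56 and its MPNST from 7.92 over 9.49 to 11.53. MPNST 4 was lowest and MPNST 11 reached the nerve range, so the groups overlapped. The difference was -1.53 ± 0.45 SE (limma adjusted p = 0.0108).

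Sema5a (chromosome 2), a membrane semaphorin with thrombospondin repeats, ranged from 7.63 over 8.60 to 9.47 in nerve and from 7.28 over 7.30 to 7.45 in MPNST. All MPNST were below all pools, by 2.22-fold (-1.15 ± 0.18 SE, limma adjusted p = 9.21e-05) and by 7.52-fold with the robust background. A second Sema5a probe was detected on 1 array and was not tested. Sema6c, a transmembrane semaphorin, ranged from 7.43 over 7.77 to 8.72 in nerve and from 7.25 over 7.31 to 7.38 in MPNST, without overlap (-0.64 ± 0.16 SE, limma adjusted p = 0.00342; 3.95-fold with the robust background). Sema6b was the remaining fall (-0.04, adjusted p = 0.023, 1.35-fold with the robust background), while Sema4a, Sema4c, Sema6d and Sema7a did not pass.

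**Figure D2:**
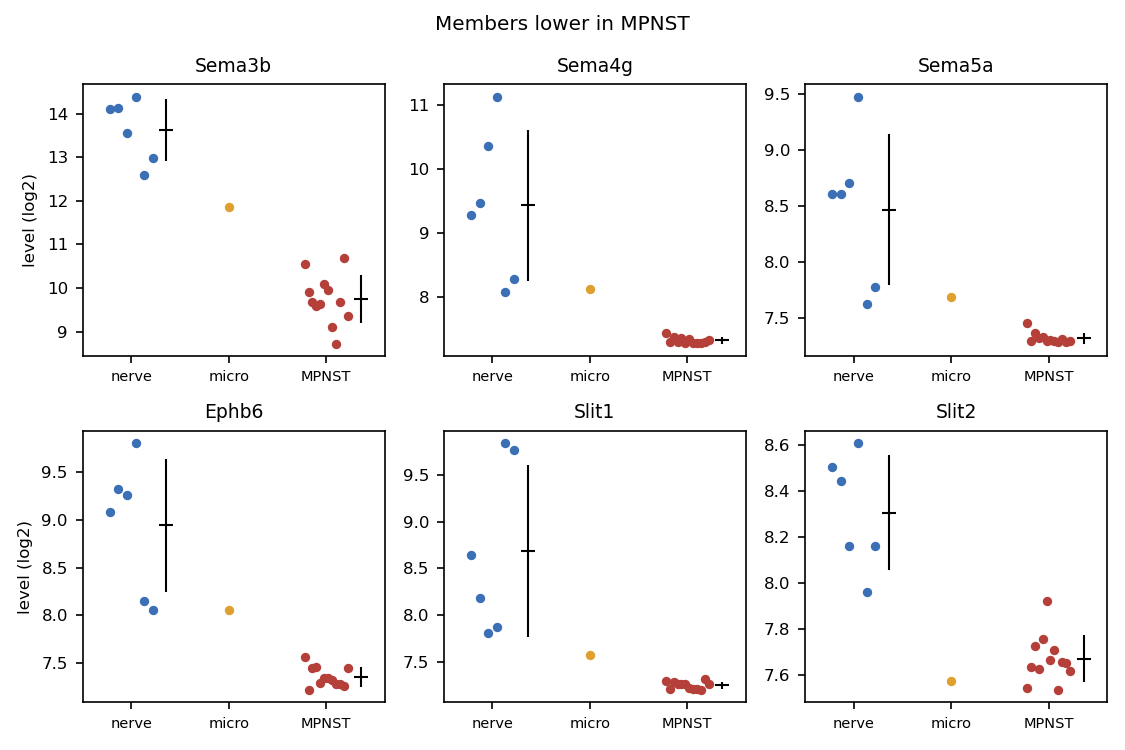
Log2 levels of 6 genes lower in MPNST, each point 1 array in replicate order from left to right (6 nerve pools, 1 microtumour, 12 MPNST), with the mean ± SD beside each replicated group. Every MPNST lies below every nerve pool in all 6 panels, and the microtumour lies between the group means for each gene except Slit2.

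Among the receptors of semaphorins, Plxnb2 (chromosome 7), the plexin that binds class 4 semaphorins such as Sema4c, had the largest rise. Its levels in nerve 1 to 6 were 8.75, 8.94, 8.34, 8.53, 7.82 and 7.80, and its MPNST ranged from 9.52 over 9.96 to 10.52. The lowest MPNST stood above the highest pool, and the microtumour at 8.57 lay within the nerve range. Plxnb2 was 3.02-fold higher in MPNST (1.59 ± 0.19 SE, limma adjusted p = 3.58e-06). Its ligand Sema4c did not pass (-0.45 ± 0.33 SE, adjusted p = 0.294).

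Nrp1 (chromosome 19), a coreceptor for class 3 semaphorins and for vascular endothelial growth factor, was 2.79-fold higher (1.48 ± 0.40 SE, limma adjusted p = 0.00644). It ranged from 7.66 over 8.41 to 9.07 in nerve and from 8.60 over 9.71 to 11.73 in MPNST. MPNST 1, 3 and 4 lay within the nerve range, and MPNST 9 was highest. The call was lost in 5 of 14 other settings, among them median scaling (1.14, adjusted p = 0.0733), sex and strain as covariates (1.04, adjusted p = 0.107) and the set without F1 hybrids (1.05, adjusted p = 0.065). Nrp2, its paralogue, did not pass (0.02 ± 0.02 SE, adjusted p = 0.493).

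Plxnd1 (chromosome 4), the Sema3e receptor of endothelium, was lower in MPNST while Sema3e was higher. It ranged from 10.61 over 11.61 to 11.74 in nerve and from 9.68 over 10.22 to 11.39 in MPNST. Both BDIV pools, at 10.61 and 10.67, lay within the MPNST range, and MPNST 1 was the tumour with the highest level. The fall was 2.13-fold (-1.09 ± 0.24 SE, limma adjusted p = 0.00141). Plxna2 was detected in no MPNST and in 4 of 6 pools and was at least 1.04-fold lower, or at least 1.43-fold with the robust background, but it entered the test through the pools alone. Plxna3 did not pass.

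**Figure D3:**
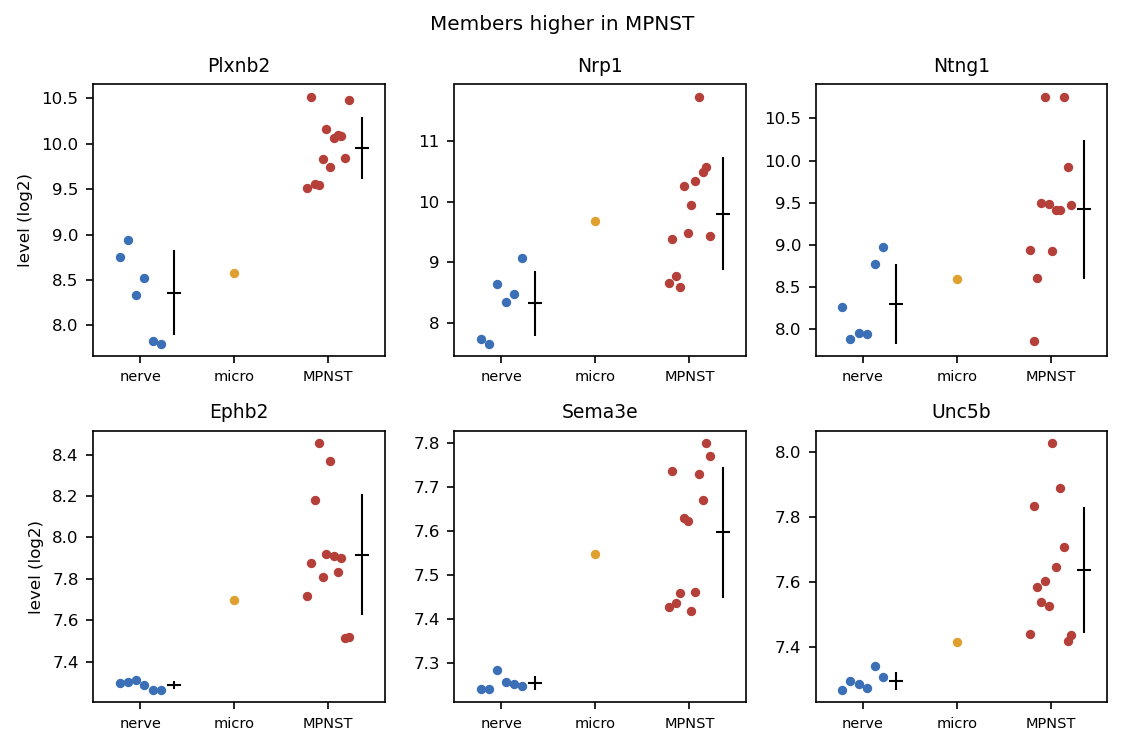
Log2 levels of 6 genes higher in MPNST, each point 1 array in replicate order from left to right (6 nerve pools, 1 microtumour, 12 MPNST), with the mean ± SD beside each replicated group. The groups do not overlap for Plxnb2, Ephb2, Sema3e and Unc5b, and they overlap for Nrp1 and Ntng1.

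Within the ephrin system, transmembrane ephrins and their receptors moved in both directions. Efnb1 (chromosome X), a transmembrane ephrin, ranged from 8.63 over 8.75 to 8.95 in nerve and from 8.36 over 9.52 to 10.67 in MPNST. The MPNST spread on both sides of the pools, with MPNST 1, 4 and 10 at or below the lowest of them. The rise was 0.76 ± 0.29 SE (limma adjusted p = 0.0461), and 14 of 18 fits that left out 1 array ended this call. Efnb3, another transmembrane ephrin, ranged from 7.52 over 7.77 to 8.02 in nerve and from 7.25 over 7.31 to 7.56 in MPNST (-0.38 ± 0.07 SE, limma adjusted p = 0.000187; 2.76-fold with the robust background). The groups overlapped through MPNST 3 and 7 and nerve 6.

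The membrane-anchored ephrins Efna4 (0.08 ± 0.03 SE, adjusted p = 0.0438) and Efna5 (0.24 ± 0.09 SE, adjusted p = 0.046) were higher in MPNST by limma, by 1.56-fold and 2.34-fold with the robust background. Each of these calls ended in 12 of 18 fits that left out 1 array. Efna4 was detected in 1 of 6 pools and 10 of 12 MPNST, and Efna5 in 5 of 6 pools and 10 of 12 MPNST. Efna1 did not pass and was detected in no MPNST.

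Ephb2 (chromosome 5), a receptor kinase for transmembrane ephrins, had a clear rise and Ephb6 (chromosome 4), a family member without kinase activity, a clear fall. Ephb2 ranged from 7.26 over 7.29 to 7.31 in nerve and from 7.51 over 7.89 to 8.45 in MPNST, with no overlap. The difference was 0.63 ± 0.12 SE (limma adjusted p = 0.000383), or 5.0-fold with the robust background. Ephb6 stood at 9.08, 9.32, 9.26, 9.80, 8.15 and 8.06 in nerve 1 to 6 and ranged from 7.22 over 7.33 to 7.56 in MPNST. Every MPNST lay below the lowest pool, a 3.0-fold fall (-1.59 ± 0.19 SE, limma adjusted p = 5.17e-06) and 10.3-fold with the robust background.

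Epha5 (chromosome 14), a receptor of nervous tissue for membrane-anchored ephrins, was detected in 6 of 6 pools (7.38 to 7.61) and in 0 of 12 MPNST (7.21 to 7.30). It was at least 1.19-fold lower in MPNST (limma adjusted p = 1.33e-06), or at least 2.91-fold with the robust background, where the bound sets MPNST at the lowest signal called present. Epha5 met the detection filter without any MPNST, so its call is not independent of that filter. Ephb1 ranged from 7.58 over 7.85 to 8.13 in nerve and from 7.26 over 7.31 to 8.27 in MPNST (-0.40 ± 0.13 SE, limma adjusted p = 0.0225; 2.86-fold with the robust background). MPNST 1 was above every pool for Ephb1, and MPNST 3 and 4 lay in the nerve range. Ephb3 was called at 0.03 ± 0.01 SE (adjusted p = 0.0422, 1.26-fold with the robust background), and Epha2 and Epha4 did not pass.

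All 3 Slits, the secreted ligands of Robo receptors, were lower in MPNST. Slit1 (chromosome 1), the family member most restricted to the nervous system, stood at 8.64, 8.18, 7.81, 7.87, 9.84 and 9.77 in nerve 1 to 6 and at 7.20 to 7.32 with a median of 7.27 in MPNST. It was detected in 2 of 12 MPNST, and all of them lay below all pools. The fall was 2.70-fold (-1.43 ± 0.25 SE, limma adjusted p = 0.000187), and 13.2-fold with the robust background, a size that rests on tumours mostly not above background.

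Slit2 (chromosome 14) was detected on every array and ranged from 7.96 over 8.30 to 8.61 in nerve and from 7.53 over 7.65 to 7.92 in MPNST, again without overlap. The fall was 0.64 ± 0.08 SE on the log2 scale (limma adjusted p = 7.19e-06), 2.46-fold with the robust background. Slit3 (chromosome 10) ranged from 7.34 over 7.49 to 7.58 in nerve and from 7.22 over 7.29 to 7.56 in MPNST, with overlap (-0.15 ± 0.05 SE, limma adjusted p = 0.0129; 1.93-fold with the robust background). Of their receptors only Robo2 was tested (-0.08 ± 0.03 SE, adjusted p = 0.0429; 1.5-fold lower with the robust background), and 11 of 18 fits that left out 1 array ended its call.

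Netrin-G1 (Ntng1, chromosome 2), a membrane-anchored relative of netrins that binds other partners than Dcc, was 2.17-fold higher in MPNST (1.12 ± 0.35 SE, limma adjusted p = 0.0168). It ranged from 7.88 over 8.11 to 8.98 in nerve and from 7.86 over 9.44 to 10.76 in MPNST. MPNST 5 and 10 were highest and MPNST 2 was below every pool. The call was lost in 5 of 14 other settings, among them median scaling (0.80, adjusted p = 0.162), sex and strain as covariates (0.98, adjusted p = 0.119) and both background ranges taken alone (1.28 and 1.19, adjusted p = 0.189 and 0.0584). Unc5b (chromosome 20), a netrin receptor also found on endothelium, ranged from 7.27 over 7.29 to 7.34 in nerve and from 7.42 over 7.59 to 8.03 in MPNST. The groups did not overlap, and the rise was 0.34 ± 0.08 SE (limma adjusted p = 0.00197), 3.0-fold with the robust background.

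Ntn3, Ntng2 and Unc5c did not pass, nor did Unc50, which matches the symbol rule but is no netrin receptor. The 15 probes detected on fewer than 3 arrays were those of Dcc, Efna2, Efnb2, Epha10, Epha7, Ntn1, Ntn5, Robo3, Robo4, Sema3g, Sema5b, Unc5a, Unc5cl and Unc5d and the second Sema5a probe. Dcc, the main netrin receptor, and Unc5cl and Sema5b were detected on 2 arrays each, and Ntn1 on none.

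Bulk RNA cannot tell fewer cells of a type from less RNA per cell. Markers of sensory neurons were lower in MPNST for 11 of 15 genes, with a mean level of 10.98 to 11.93 in the pools and 7.64 to 9.18 in the tumours. Markers of myelinating Schwann cells were lower for 6 of 7 (11.54 to 12.97 against 9.36 to 10.26), of fibroblasts for 4 of 8 and of perineurium for 3 of 3. For endothelium 1 of 7 was higher and 4 lower. Markers of dividing cells were higher for 5 of 5, of macrophages for 5 of 7, of immature Schwann cells for 5 of 8 with 1 lower, and of pericytes for 2 of 3, while none passed among 5 for T and NK cells, 3 for satellite glia and 3 for skeletal muscle. Skeletal muscle markers averaged 11.50 in MPNST 2 and 11.09 in MPNST 10 and at most 7.85 on any other array. The part of these cell types in the guidance gene differences was not tested.

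Tumours differed among themselves for several members. The standard deviation over the 12 MPNST was 1.05 for Sema4f, 0.93 for Nrp1, 0.82 for Ntng1, 0.74 for Unc5c and 0.73 for Efnb1. Unc5c (1.67) and Epha2 (1.13) exceeded Sema4f (1.10) with the robust background. Unc5c, a netrin receptor, ranged from 7.23 to 9.83 over a median of 7.27, and its highest value was that of MPNST 1, with the next tumour at 7.86. Among 25 members detected in at least 9 MPNST, MPNST 1 was the highest tumour for 7 (Epha4, Ephb1, Plxna3, Plxnd1, Sema4a, Sema5a and Sema7a) and the lowest for 5 (Efna4, Efnb1, Epha2, Plxnb2 and Sema4c). MPNST 1 also had the highest mean level of the endothelial markers (9.53, other MPNST up to 8.87) and of the macrophage markers (10.52, other MPNST up to 10.18), whose part was not tested. MPNST 11 was the highest for 3 members and the lowest for 6.

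The microtumour, an early lesion represented by 1 array, differed from nerve in 1 of 43 members, where 2.64% of all probes differed. This was Slit2, which stood at 7.57 in the microtumour, within the MPNST range and below every pool (-0.73 ± 0.17 SE, limma adjusted p = 0.0303). It differed from MPNST in 1 of 43 members, where 2.54% of all probes differed. This was Sema6b, a transmembrane semaphorin, at 7.38 against 7.22 to 7.30 in MPNST (0.13 ± 0.03 SE, limma adjusted p = 0.0311; 1.10 on the log2 scale with the robust background). The Slit2 call was lost without F1 hybrids (adjusted p = 0.138), within the low-background arrays (0.294) and on the authors' values (0.0648). The Sema6b call was lost without F1 hybrids (0.105), within the low-background arrays (0.142) and with detection required on at least 6 arrays (0.0529). Both tests assume that a single microtumour varies as the other arrays do.

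With the robust background 3 members differed from nerve (2.68% of all probes) and 3 from MPNST (4.02% of all probes). Sema3e was higher than nerve (1.81, adjusted p = 0.0238) and Sema4c (-3.32, adjusted p = 0.0167) and Slit2 (-1.55, adjusted p = 0.0185) lower. Compared with MPNST, Sema4c was lower (-2.86, adjusted p = 0.0243), and Sema4g (2.62, adjusted p = 0.0487) and Sema6b (1.10, adjusted p = 0.0261) were higher. The main level of Sema4c was 7.46 in the microtumour, below the lowest pool at 8.51 and the lowest MPNST at 8.0.

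For the 10 members with a difference of at least 1, the microtumour was placed on a scale from 0 at the nerve mean to 1 at the MPNST mean. It stood near the MPNST mean for Sema4f (1.19), Plxnd1 (0.972) and Nrp1 (0.913). It stood between the means for Slit1 (0.774), Sema5a (0.676), Sema4g (0.617), Ephb6 (0.559) and Sema3b (0.454). It stood nearer the nerve mean for Ntng1 (0.262) and Plxnb2 (0.132). The nerve mean covers the pools of all strains, whereas the microtumour was congenic. For Plxnb2 the microtumour (8.57) lay below both congenic pools (8.75 and 8.94), away from the MPNST. For the other members it lay on the MPNST side of both congenic pools. With the robust background the places of Slit1, Sema5a, Sema4g and Ephb6 moved to 0.496, 0.444, 0.358 and 0.337. The microtumour's sensory neuron markers averaged 10.79 and its myelin markers 11.13, below every nerve pool and above every MPNST, and their part was not tested.

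Untreated nerve itself differed by strain. Between BDIV and BDIX pools, 2 of each with sex as a covariate, 8 of 43 members differed (limma adjusted p under 0.05), where 11.1% of all probes differed. The fit used only the 6 pools, and both BDIV pools, nerve 5 and 6, were the most alike (median absolute log2 difference 0.0619). Its SEs therefore rest on few pools and do not show the spread between animals. Sema4g was lower in BDIV (-2.58 ± 0.19 SE, adjusted p = 0.0249), at 8.07 and 8.27 against 10.36 and 11.14 in BDIX, with the congenic pools between at 9.28 and 9.47. Slit1 had the opposite order and was 1.97 ± 0.16 SE higher in BDIV (adjusted p = 0.0259), at 9.84 and 9.77 against 7.81 and 7.87, with the congenic pools again between at 8.64 and 8.18. The congenic pools were the only pools in the higher background range, so for them strain and range cannot be told apart.

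Ephb6 (-1.43), Plxnd1 (-1.01) and Plxnb2 (-0.62) were also lower in BDIV pools, and Epha4 (0.57), Sema4a (0.56) and Epha5 (0.20) higher. The robust background put Plxnb2 at -1.18, Epha4 at 1.29, Sema4a at 0.96 and Epha5 at 0.80. Sensory neuron markers averaged 11.92 and 11.93 in the BDIV pools and 10.98 and 11.09 in the BDIX pools. Myelin markers averaged 11.54 and 11.84 in BDIV and 12.54 and 12.97 in BDIX. The part of these cell types in the strain differences was not tested. The count was 17 of 43 members with the robust background, where 22% of all probes differed.

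**Figure D4:**
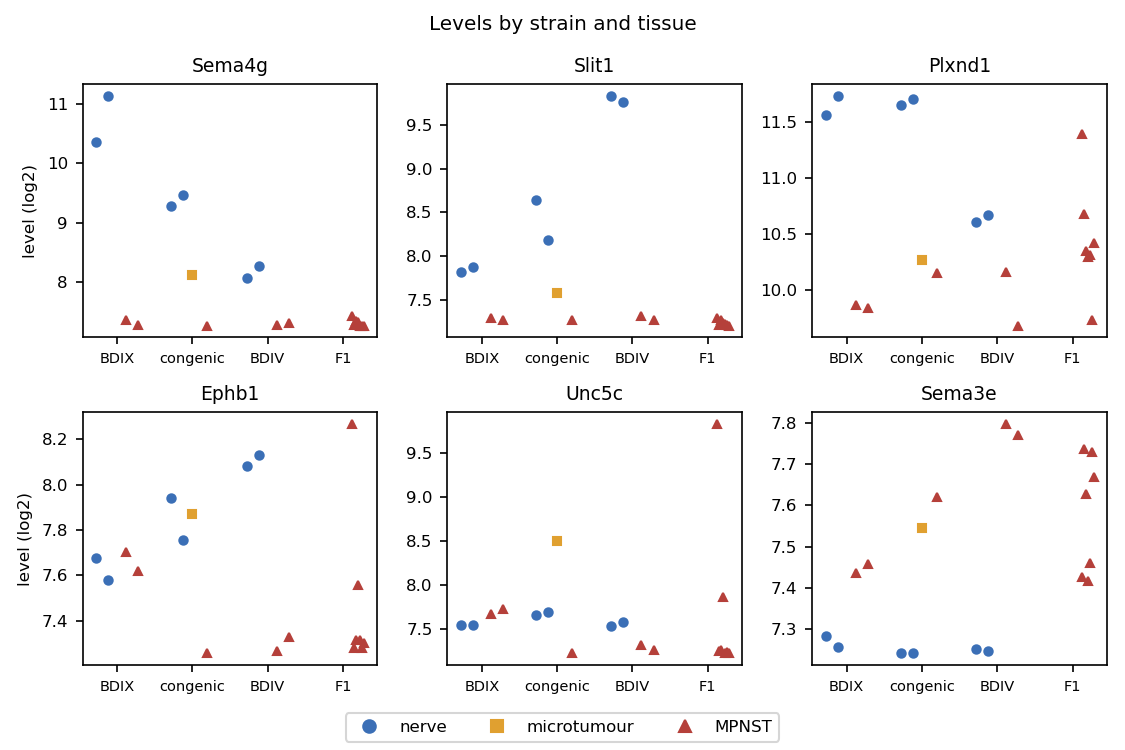
Log2 levels of 6 genes by strain (BDIX, the congenic BDIX.BDIV-Mss4a, BDIV and F1-hybrid) and tissue, each point 1 array (6 nerve pools, 1 microtumour, 12 MPNST; F1 hybrids have no pool). Nerve levels of Sema4g step down and those of Slit1 step up from BDIX over the congenic strain to BDIV. For Sema4g and Slit1 the MPNST of every strain lie together near the lowest levels. The congenic pools are the only pools in the higher background range.

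In MPNST, 0 of 43 members differed between BDIV, BDIX and F1 hybrids in limma's F test, where 1.98% of all probes differed. At an unadjusted p under 0.05 there were 5 members, and the lowest adjusted p was 0.0707, for the receptor kinase Epha2. Between male and female MPNST 0 of 43 members differed by limma, where 0% of all probes differed, and 7 members had an unadjusted p under 0.05. Median scaling and the robust background also called 0 members for sex, and for strain 0 and 1.

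The difference between MPNST and nerve was itself compared between BDIV and BDIX, with 2 MPNST and 2 pools of each strain and sex as a covariate. By limma's interaction term 6 of 43 members differed, where 7.1% of all probes did. The BDIX tumours (MPNST 3 and 4) were high-background arrays. The BDIV tumours (MPNST 11 and 12) and the pools of both strains were low-background arrays. Strain and background range therefore cannot be told apart in this term. The mean difference for Sema4g was -3.43 in BDIX and -0.87 in BDIV (difference of differences 2.72 ± 0.31 SE, adjusted p = 0.0287). For Slit1 it was -0.57 in BDIX and -2.51 in BDIV (-1.94 ± 0.06 SE, adjusted p = 0.00706). For both genes the mean MPNST levels of BDIX and BDIV were close (7.32 and 7.30 for Sema4g, 7.28 and 7.29 for Slit1), and the pools lay apart.

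Plxnd1 had an interaction of 1.20 ± 0.17 SE (adjusted p = 0.0378), with the MPNST means at 9.85 in BDIX and 9.92 in BDIV. For Sema3e (0.36 ± 0.04 SE, adjusted p = 0.0279), Unc5c (-0.40 ± 0.05 SE, adjusted p = 0.0334) and Ephb1 (-0.86 ± 0.08 SE, adjusted p = 0.0207) the mean MPNST levels were 7.45 in BDIX and 7.78 in BDIV for Sema3e, 7.70 and 7.29 for Unc5c, and 7.66 and 7.30 for Ephb1. The pools' means were 7.27 in BDIX and 7.25 in BDIV for Sema3e, 7.55 and 7.56 for Unc5c, and 7.63 and 8.11 for Ephb1, and none of these 3 passed the strain test in MPNST. These calls rest on few arrays: 0 members were called without MPNST 3, MPNST 4, nerve 5 or nerve 6, 1 without nerve 4 and 3 without MPNST 11.

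Genes that carry guidance signals inside the cell, or assist the receptors, were taken from a list of 107 genes, of which 76 were tested. Of these, 16 were higher and 20 lower in MPNST, and their median log2 difference was 0.0028, beside the 22.5% and 20.1% of all probes. Among the highest were the adaptor Nck2 (2.74), the Unc5 and Robo partner Flrt3 (2.21), the integrin subunit Itgb1 (1.28) and the transcription factor Nfatc4 (0.93). The lowest were the Rac regulator Chn1 (-2.67), the glypican Gpc3 (-2.08), the Rac activator Tiam1 (-2.05), the semaphorin mediator Crmp1 (-1.64), the receptor partner Lingo1 (-1.27, or -2.54 with the robust background) and the calcineurin subunit Ppp3ca (-1.27). These 10 genes passed limma's test, with adjusted p-values up to 0.0242. With median scaling the split was 9 higher and 25 lower. Calls over all probes then went from 5594 to 4719, and their split by direction is not given here.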

How the data were processed

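Total RNA of 12 MPNST, 1 microtumour and 6 nerve pools was read on Illumina rat arrays, summarized with BeadStudio 3.0 per the submitters' processing notes. Per the file headers, the deposited raw table holds an average bead intensity for each probe, not normalized, with a detection p-value against negative beads. The authors also deposited background-subtracted, scaled intensity values, used as an alternative: set against the raw table, 17 of 19 columns matched their own raw column and 2, nerve 5 and 6, each other's (largest residual 0.0145 intensity units). A deposited table of nerve averages was not used.

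The neqc function gave background-corrected, quantile-normalized log2 levels from the raw intensities (limma 3.58.1, R 4.3.3, offset 16, background from the detection p-values). Of 21791 probes, 13116 were tested, those that 3 or more of the 19 arrays detected at a p-value under 0.05. The array annotation, which can be old, gave 1 symbol for 13387 probes and none for 8404. MPNST, microtumour and nerve were fitted together on all 19 arrays (16 residual degrees of freedom) with limma's moderated test, two-sided, Benjamini-Hochberg adjusted over all probes, threshold 0.05. Strain, sex and interaction fits used the arrays named in the text. The robust background took the centre and spread of the negative beads from the middle of their range. Other alternatives were median scaling, other filters, covariates, leaving out each array and blocks. "At least" folds set the undetected group at the lowest signal called present. For arrays, their number limits the precision. P-values set each difference against the spread among these tumours and among these pools, and a pool does not show the spread between its animals. The fit was tested on simulated data.

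The members, the gene lists and the tests were chosen with earlier results of these data known. Values were given for Sema4g, for up to 4 called members of each family with the largest difference, for every called member past 1 on the log2 scale, for up to 5 called members per direction in the other comparisons and for the 6 highest and 6 lowest called signalling genes, 2 of which are not reported here. Ephb3, Sema6b and the members that did not pass were named to account for each family. Replicate numbers do not pair the groups: correlations of same-numbered deviations were -0.3 to 0.21 over 6 numbers. Chromosomes are those of RefSeq GRCr8 by gene identifier.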

Additional observations from a re-analysis of the deposited data

Results flagged for a closer look

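The difference between MPNST and nerve was not the same in BDIV and BDIX for 6 of 43 members by limma's interaction term, where 7.1% of all probes differed. The BDIV value minus the BDIX value was -1.94 for Slit1, -0.86 for Ephb1, 0.36 for Sema3e, 2.72 for Sema4g, -0.40 for Unc5c and 1.20 for Plxnd1 on the log2 scale. Adjusted p-values ran from 0.00706 for Slit1 to 0.0378 for Plxnd1. For Sema4g and Slit1 the mean MPNST levels of BDIX and BDIV were close, and the pools lay apart. Leaving out 1 of the 8 arrays gave between 0 and 7 such members. Of these 8 arrays only the BDIX tumours lay in the higher background range, so strain and range cannot be told apart. With the robust background the values were -2.27 for Slit1, -2.90 for Ephb1, 1.18 for Sema3e, 2.76 for Sema4g, -1.76 for Unc5c and 1.15 for Plxnd1, the last with an adjusted p of 0.0521. That background also called Sema3b (2.0, limma adjusted p = 0.0292), Sema5a (1.86, 0.0369), Plxnb2 (1.69, 0.0411) and Ephb2 (-1.47, 0.0412), which did not pass on the main values.

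Sema3e in nerve 3 stood apart from the other pools at 7.28, with the nearest pool at 7.26 and the lowest at 7.24. The gap was 0.65 of the range, above Dixon's 95% critical value for 6 samples. Chance gives such a gap in about 1 of 20 groups, and 24 members were examined in this way in nerve.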

How the results depend on the processing

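In 767 refits of the 24 named members for MPNST against nerve, 653 kept the call, 114 lost it and 0 reversed. Efnb3, Ephb2, Plxnb2, Sema3b, Sema3e and Slit2 never lost the call. Sema3e met the detection filter with fewer than 3 nerve pools detected, so its call is not independent of that filter. For MPNST against nerve, 26 members became 16 without F1 hybrids, 17 within the high-background arrays, 9 within the low-background arrays (3 MPNST and 4 nerve pools) and 15 with the replicate block, and 20 to 25 with 1 array left out. The replicate numbers are shared names only. Median scaling gave 22 calls, 6 higher and 16 lower, the authors' values 26, 8 higher and 18 lower, and nerve 5 and 6 averaged as 1 pool 20, 6 higher and 14 lower. Over all probes tested, calls also went from 5594 to 3633 without F1 hybrids, 4719 under median scaling and 5596 on the authors' values. Totals over all probes are not given here for the other settings. Their counts therefore do not show a loss particular to the members.

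For the microtumour against nerve, 1 call became 2 under median scaling, under covariates for sex and strain and within the low-background arrays, 3 under the robust background and 4 on the authors' values, and 1 to 2 with 1 array left out. Over all probes tested, calls against nerve went from 346 to 570 under median scaling, 394 under these covariates and 462 on the authors' values. They numbered 352 under the robust background. Against MPNST, 1 call became 4 under median scaling, 8 on the authors' values, 0 when probes had to be detected on at least 6 arrays, 3 with array weights, 2 under covariates for sex and strain, with the background range as a block and within the low-background arrays, and 3 with the robust background, and 1 to 2 with 1 array left out. Over all probes tested, these calls went from 333 to 756 under median scaling, 731 on the authors' values and 554 with array weights. They numbered 549 under covariates, 472 with the background block, 527 with the robust background and 322 with detection on at least 6 arrays. Counts alone hide which genes were called: Slit2 was the 1 lower call against nerve, and without F1 hybrids the 1 call, and within the low-background arrays both calls, were higher. For BDIV against BDIX nerve, 8 calls became 17 with the robust background, and median scaling gave 10, 8 higher and 2 lower. The share of all probes called went from 11.1% to 22% with the robust background. For strain in MPNST, 0 became 1 without the sex covariate and 1 with the robust background. The strain interaction ran from 0 to 7 calls with 1 array left out, against 6 calls and 7.1% of all probes in the main fit. With the robust background its calls gained Sema3b, Sema5a, Plxnb2 and Ephb2 and lost Plxnd1. The causes were not tested. Dim members near 7.2 are limited by signal over background: their sizes depend on the background estimate.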
